A study of Mus musculus with 37 samples.

Results

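This account follows 10 imprinted genes with roles in growth that lie outside chromosome 7: Igf2r, Airn, Grb10, Gnas, Nespas, Plagl1, Impact, Nnat, Sgce and Peg10. They were chosen by name, and all 10 were found among the 35542 genes of the count table. RNA-seq libraries came from the tailbuds of 37 mouse embryos, 1 per embryo, collected between embryonic days 8 and 8.5. The tailbud is the posterior tip from which the trunk and tail are laid down, and an embryo's stage was given by its number of somites, the segments of mesoderm added in pairs along the trunk. Control embryos (wt, Smchd1 fl/+) had mothers that were homozygous for a floxed Smchd1 allele and carried no Cre. Maternally deleted embryos (matdel, Smchd1 del/+) had Smchd1 del/fl mothers with an MMTV-Cre transgene. This transgene deletes the floxed allele in the oocyte, so that both the maternal SMCHD1 protein supply and the maternal gene copy were lost. All fathers were Castaneus with intact Smchd1 and all mothers were kept on the C57BL/6 background. Every embryo was thus an F1 hybrid with a mainly C57BL/6 maternal and a Castaneus paternal genome. The paper reports a small part of FVB genome in the MMTV-Cre animals. There were 21 wt (13 female, 8 male) and 16 matdel embryos (11 female, 5 male). By stage they numbered 4 wt and 4 matdel at 6 somites, 4 and 3 at 7, 3 and 2 at 8, 3 and 2 at 9, 4 and 3 at 10, and 3 and 2 at 11 somites. A matdel embryo is also heterozygous for Smchd1, and no library of the reverse cross was analysed here, so loss of the oocyte supply and loss of the maternal copy cannot be told apart. Litter was not given in the sources used here.

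Imprinted genes are transcribed mainly or only from 1 parental copy, because marks laid down in the egg or the sperm tell the copies apart. In canonical imprinting the mark is DNA methylation at an imprinting control region, and in the non-canonical kind it is a histone mark from the egg, H3K27me3. Many of them set how fast the embryo grows, and those expressed from the paternal copy often promote growth while those expressed from the maternal copy often restrain it. SMCHD1 is a chromatin protein that helps to keep genes silent on the inactive X chromosome and at imprinted clusters, and the egg supplies it to the early embryo. Of the 10 genes, Igf2r and Grb10 are known as maternally expressed growth restrainers. Airn, Nespas, Plagl1, Impact, Nnat, Sgce and Peg10 are known as paternally expressed. Gnas makes different transcripts from the maternal copy, the paternal copy or both. The counts sum both parental copies, so they show how much RNA a gene made and not which copy made it. The expressed allele named for a gene here is background from mouse imprinting in general and was not measured in these files.

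The 10 genes form 7 loci in the GRCm38 build. On chromosome 17, Igf2r (minus strand, chr17:12682406-12769664) is overlapped by Airn (plus strand, chr17:12741311-12860136), an RNA that starts inside Igf2r, 28353 bases from the Igf2r start, and runs through the Igf2r promoter. The exons of the pair share no bases. Grb10 lies on the minus strand of chromosome 11 (chr11:11930508-12038683) and Plagl1 on the plus strand of chromosome 10 (chr10:13060504-13131694). On chromosome 2, Nnat (plus strand, chr2:157560078-157562522) sits in an intron of Blcap. Also on chromosome 2 are Gnas (plus strand, chr2:174284320-174346744) and Nespas (minus strand, chr2:174281237-174295436), which overlap on opposite strands, and 31.4% of the exon bases of Nespas also belong to exons of Gnas. On chromosome 6, Sgce (minus strand, chr6:4674350-4747207) and Peg10 (plus strand, chr6:4747306-4760517) point away from each other from starts only 99 bases apart.

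The bases just upstream of a start are shown for 4 of these genes, because CpG is the base pair that carries the methyl marks of an imprint and its density differs sharply between them. The sequences are those of RefSeq on GRCm38.p6, read 5′ to 3′ on the strand of the gene and ending at or before the annotated start, with CpG in capitals. The Igf2r and Airn windows (chr17:12769707-12769956, minus strand, and chr17:12741061-12741310, plus strand) lie just upstream of the starts of a sense and antisense pair. The Gnas window (chr2:174284070-174284319, plus strand) precedes the most upstream start of that gene. The Plagl1 window (chr10:13090582-13090690, plus strand) precedes a start inside the gene and stops where annotated exons begin.
Igf2r: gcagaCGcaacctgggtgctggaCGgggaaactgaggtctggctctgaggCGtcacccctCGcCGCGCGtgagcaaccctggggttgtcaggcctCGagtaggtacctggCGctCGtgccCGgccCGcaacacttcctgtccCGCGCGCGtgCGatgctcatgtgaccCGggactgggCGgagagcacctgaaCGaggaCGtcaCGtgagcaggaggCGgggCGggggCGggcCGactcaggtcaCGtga
Airn: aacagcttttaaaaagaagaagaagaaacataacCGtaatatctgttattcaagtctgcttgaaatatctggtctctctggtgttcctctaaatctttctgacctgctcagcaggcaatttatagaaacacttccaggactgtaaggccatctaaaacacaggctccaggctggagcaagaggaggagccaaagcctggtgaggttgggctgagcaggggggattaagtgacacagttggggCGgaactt
Gnas: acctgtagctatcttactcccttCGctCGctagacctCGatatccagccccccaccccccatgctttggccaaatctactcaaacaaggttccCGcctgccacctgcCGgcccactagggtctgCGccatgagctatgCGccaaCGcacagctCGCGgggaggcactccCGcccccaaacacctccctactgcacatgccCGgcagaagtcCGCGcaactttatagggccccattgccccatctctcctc
Plagl1: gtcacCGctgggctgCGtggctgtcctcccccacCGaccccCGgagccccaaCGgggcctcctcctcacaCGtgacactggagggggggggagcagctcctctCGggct

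Igf2r held 27 CpG in its 250 bases, with a GC content of 69.2%, whereas Airn held 2 CpG in 250 bases, with a GC content of 45.6%. The Gnas window held 14 CpG at 61.6% GC and the shorter Plagl1 stretch of 109 bases held 7 at 73.4% GC. Over all 32851 RefSeq windows of 250 bases the median was 6 CpG and 52.4% GC. Each window ends before its start, so CpG at or past the start was not counted. The counts do not show where the imprint of a locus lies. The hexamer TGCCGC, which the imprint-keeping factor ZFP57 is known to bind when methylated, was searched on both strands. It occurred in 8.68% of all windows and in 1 of 10 windows of the 6 genes matched, that of Plagl1, within its annotated exon part. Such a match is a description of letters and not of binding. Nespas, Impact, Sgce and Peg10 were not matched.

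Library depth was 3.06 M to 80.6 M counts in wt (median 11.96 M, where M is 1 mega-count) and 0.916 M to 30.2 M in matdel embryos (median 14.2 M), and the labels name no batch. The targeted gene followed its label, since Smchd1 had 149 ± 22.2 CPM (counts scaled to library size after TMM normalisation, mean ± SD, n = 21) in wt and 88.9 ± 13.2 CPM (n = 16) in matdel embryos. All 16 listed tailbud markers had a mean over 1 CPM. Some libraries stood apart. Matdel replicates 1 and 2 at 6 somites had 1.82% to 2.77% of their counts at the ribosomal RNA locus, against 0.176% to 1.28% in the other 35, and the highest summed levels of 10 somite markers (120 and 193 CPM), of which 4 had a mean over 1 CPM and 1 was at 0 throughout. Wt replicate 1 at 10 somites had the lowest summed tailbud marker level, 1380 CPM, where the other 36 embryos had 2013 CPM or more. Matdel replicate 3 at 6 somites was the shallowest library, and it held as few as 5 counts of Plagl1 and 12 of Airn. In whole tissue, fewer cells of a type and less RNA per cell cannot be told apart.

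Levels of the 10 genes were compared per kilobase of exon, on the scale of CPM per kb. In wt embryos Peg10 (170 ± 42.2, SD, n = 21) and Grb10 (160 ± 25.0) had the highest levels and differed by less than their spread. Gnas followed at 65.1 ± 7.91 and Nnat at 54.7 ± 10.2, whose ranges also met within 1 SD of each mean. Igf2r had 36.2 ± 6.32 and Impact 26.9 ± 2.82 CPM per kb. The remaining genes were far lower, with Plagl1 at 5.01 ± 1.90, Nespas at 3.73 ± 0.605, Sgce at 3.58 ± 0.800 and Airn at 1.99 ± 0.533 CPM per kb. Plagl1, Nespas and Sgce did not differ beyond their spread. The order was the same in matdel embryos apart from the top 2 places, where Grb10 (155 ± 18.2, n = 16) and Peg10 (152 ± 29.5) were again within their spread. Airn is known as a long, mostly unspliced RNA, so counts in its exons cover a small part of it.

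**Figure D1:**
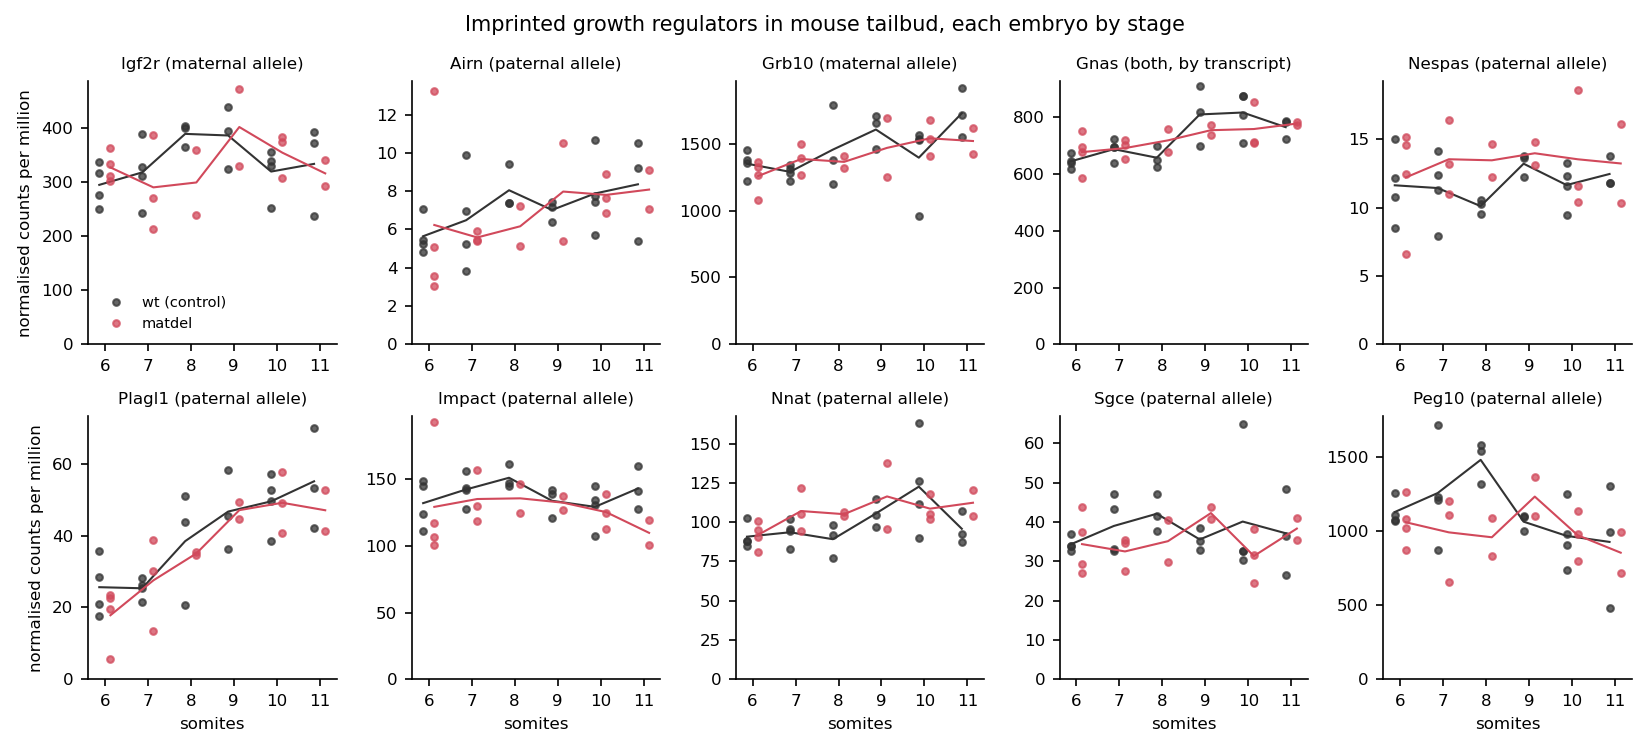
Normalised CPM of each gene (y axis, linear from 0) against somite number (x axis) in 21 wt (black) and 16 matdel embryos (red). Points are embryos, lines join the stage means, and the allele in each title is background knowledge. Plagl1 is higher at 10 and 11 than at 6 and 7 somites in both genotypes (wt stage means of 25.6 and 25.3 CPM at 6 and 7 somites, 55.1 CPM at 11), and for each gene the genotypes overlap at most stages.

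The first question was which of these genes change as the tailbud moves from 6 to 11 somites. In wt embryos a slope on somite number was fitted across 15148 genes, of which 6.64% passed an adjusted p of 0.05. Among the 10 genes, 2 passed, Plagl1 and Gnas, and both rose. A separate fit on the matdel embryos, which share no sample with the wt embryos, called 3.07% of 15477 genes and 1 of the 10, Plagl1, again rising. Across the 10 genes the median slope was 0.04 per somite on the log2 scale in each genotype, beside a median over all genes tested of -0.0018 in wt and 0.0024 in matdel embryos. The slope was positive for 8 of 10 genes in both.

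Plagl1, a zinc finger transcription factor that regulates a network of other imprinted genes, had the steepest course. In wt embryos with 6 or 7 somites it ranged from 17.6 to 35.6 CPM (median 25.7, n = 8), and in those with 10 or 11 somites from 38.6 to 70.0 CPM (median 52.9, n = 7). In matdel embryos it ranged from 5.51 to 38.9 CPM (median 22.7, n = 7) early and from 40.7 to 57.7 CPM (median 49.0, n = 5) late. Every late embryo lay above every early embryo within each genotype, in matdel embryos by the gap between 38.9 and 40.7 CPM. The share of all genes with early and late embryos separated this way was not counted. The early matdel embryos spread more widely, and the lowest of them is the shallow library with 5 counts. The ratio of the late to the early mean was 2.04 in wt and 2.20 in matdel embryos. Stage means in wt were 25.6 ± 8.02 at 6 somites (n = 4), 25.3 ± 2.85 at 7 (n = 4), 38.5 ± 15.95 at 8 (n = 3), 46.7 ± 11.1 at 9 (n = 3), 49.5 ± 7.92 at 10 (n = 4) and 55.1 ± 14.1 at 11 somites (n = 3). At 8 somites the wt embryos covered most of this whole range, with 20.5, 51.1 and 43.8 CPM. The fitted slope was 0.25 per somite (log2, SE 0.044, adjusted p = 0.00105) in wt and 0.29 (SE 0.058, adjusted p = 0.00789) in matdel embryos. The slopes differed by 0.03 (95% interval -0.12 to 0.18), within their error.

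Gnas, whose main product is the alpha subunit of the stimulatory G protein that switches on cAMP synthesis, rose less but with little spread. Wt embryos had 618 to 724 CPM (median 660, n = 8) at 6 or 7 somites and 709 to 876 CPM (median 787, n = 7) at 10 or 11 somites. Matdel embryos had 585 to 752 CPM (median 694, n = 7) early and 709 to 855 CPM (median 773, n = 5) late. The late embryos were mostly the higher ones, and early and late values overlapped in both genotypes. The slope was 0.07 per somite (SE 0.017, adjusted p = 0.0214) in wt embryos and 0.04 (SE 0.016, adjusted p = 0.166) in matdel embryos. The difference of the slopes was -0.02 (95% interval -0.07 to 0.02), so the stage course was not shown to differ. Of the Gnas exon bases, 1469 also belong to Gm20721 on the opposite strand. Gm20721 collected 93.5 to 97.0 counts for each 100 of Gnas in every embryo, so the counts of the pair could not be told apart. The counts also do not separate the Gnas transcripts of different starts.

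The slopes of 4 more genes had an unadjusted p under 0.05 in wt embryos but did not pass the adjusted threshold, which with Plagl1 and Gnas makes 6 of 10, beside 21.4% of all genes. Airn had a slope of 0.10 (SE 0.039, adjusted p = 0.140) and Grb10 of 0.06 (SE 0.025, adjusted p = 0.152). Nnat, a small membrane proteolipid of the endoplasmic reticulum, had 0.06 (SE 0.027, adjusted p = 0.206). Peg10, which derives from a retrotransposon and is needed in the placenta, was the only 1 of these 4 with a negative slope, -0.09 (SE 0.041, adjusted p = 0.199). In matdel embryos the slope was 0.16 for Airn (SE 0.067, adjusted p = 0.229) and 0.06 for Grb10 (SE 0.021, adjusted p = 0.103). Without the shallow matdel library the Airn slope in matdel embryos was 0.19 with an adjusted p of 0.0461. Without wt replicate 1 at 10 somites the Grb10 slope in wt embryos was 0.08 with an adjusted p of 0.00782. Igf2r, Nespas, Sgce and Impact had slopes in wt embryos of 0.03, 0.02, 0.01 and -0.0016 per somite, each with a 95% interval across 0. The slope difference between genotypes was called for 0 of 14733 genes (0%), with 540 at an unadjusted p under 0.05 in edgeR and none called by DESeq2, and for none of the 10.

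**Figure D2:**
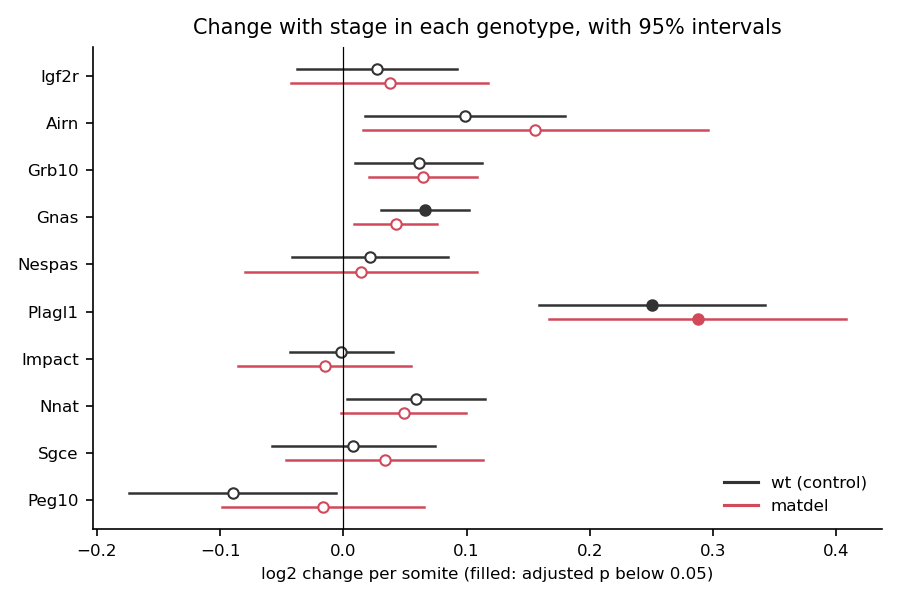
Slope of each gene on somite number (x axis, log2 change per somite) in wt (black) and matdel embryos (red), each fitted on its own embryos, with 95% intervals as lines. Filled points passed an adjusted p of 0.05: Plagl1 in both genotypes (0.25 and 0.29) and Gnas in wt embryos (0.07).

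Levels of cell type markers also went with stage. The slope passed an adjusted p of 0.05 in edgeR for 6.64% of all genes in wt and 3.07% in matdel embryos. At that threshold 5 of 11 endothelial markers rose in wt and 4 in matdel embryos. Between 6 to 8 and 9 to 11 somites their median summed level went from 349 to 408 CPM in wt embryos. In matdel embryos it went from 271 to 385 CPM. Of 12 erythroid markers 2 passed in each genotype, both rising. Of 15 endoderm markers 4 fell and 1 rose past it in wt, and 0 passed in matdel embryos. The slopes of all 12 erythroid markers were positive in both genotypes. At an unadjusted p under 0.05 in edgeR these were 9 in wt and 7 in matdel embryos, beside 21.4% and 17.5% of all genes. Of the endoderm slopes, 13 were negative and 2 positive in wt, and 12 and 3 in matdel embryos. From 6 to 8 somites to 9 to 11 somites the median summed level of 15 endoderm markers went from 1810 to 381 CPM in wt and from 1687 to 360 CPM in matdel embryos. That of 12 erythroid markers went from 112 to 916 CPM in wt and from 120 to 760 CPM in matdel embryos. Over the 37 embryos, which share depth, stage and tissue makeup, the Spearman correlation with the endoderm sum was -0.72 for Grb10 and -0.61 for Gnas. With the erythroid sum it was 0.66 for Plagl1. With the endothelial sum it was 0.58 for Plagl1 and 0.82 for Igf2r. The part of these tissues in the slopes was not tested.

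The second question was whether these genes differ between wt and matdel embryos of matched somite number. Over all stages, with somite number and sex in the model, 2 of 14733 genes passed the adjusted threshold (0.0136%), and none of the 10 was among them. Of the 10, 1 had an unadjusted p under 0.05, beside 834 genes overall (5.66%). Differences were small: the log2 ratio of matdel to wt ran from -0.15 for Peg10 to 0.19 for Nespas, with a median of -0.06 beside 0.00 over all genes. At 6 to 8 somites 0.0069% of 14495 genes were called, and at 9 to 11 somites 0.00671% of 14909, with none of the 10 in either. At each single stage 0% of 14191 to 15332 genes passed in edgeR, with 84 to 1327 genes at an unadjusted p under 0.05 and 0 to 10 called by DESeq2.

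Split by parent of origin, the 2 maternally expressed genes had differences of -0.03 (Grb10) and -0.01 (Igf2r) over all stages. The 7 paternally expressed genes ran from -0.15 to 0.19, with 5 negative, 2 positive and a median of -0.10. At 6 to 8 somites the paternally expressed genes again had 5 negative and 2 positive values, with a median of -0.16. At 9 to 11 somites 3 were negative and 4 positive, with a median of 0.01. These windows contain the embryos of the first comparison and are not separate evidence.

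**Figure D3:**
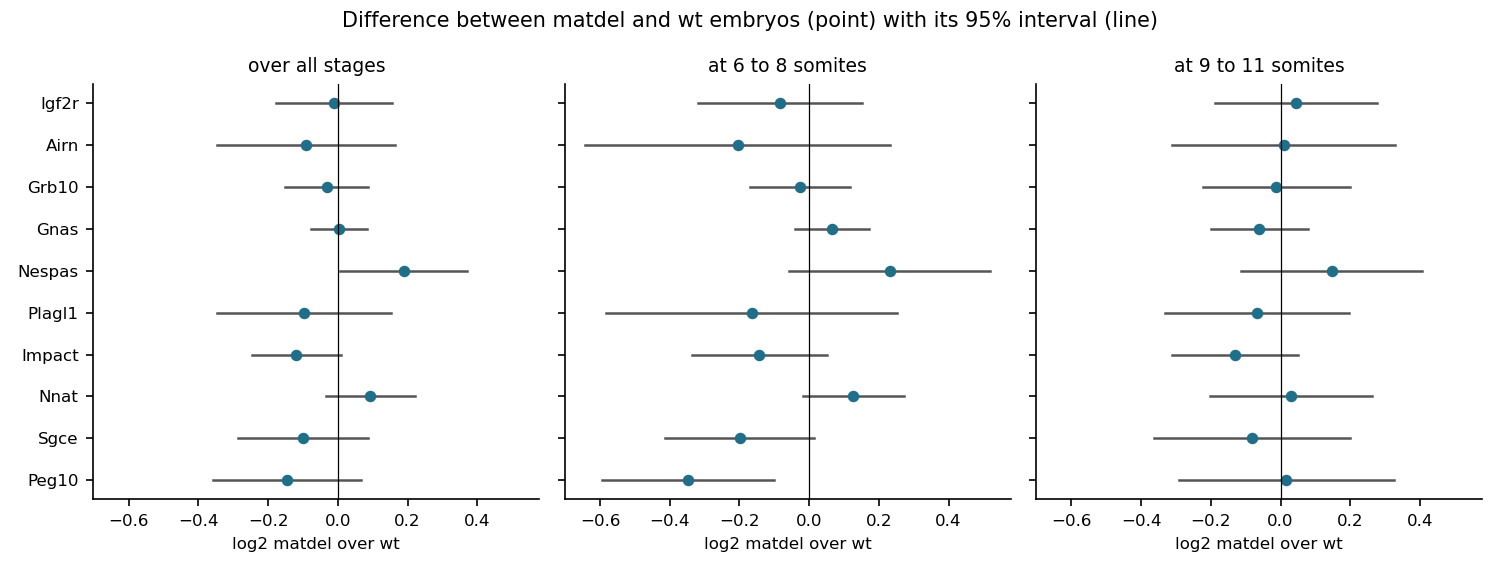
Difference between matdel and wt embryos (x axis, log2 ratio) for each gene over all stages, at 6 to 8 and at 9 to 11 somites, with 95% intervals as lines. Intervals cross 0 for all genes and windows except Nespas over all stages (0.19) and Peg10 at 6 to 8 somites (-0.35), and neither passed the adjusted threshold.

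At the Igf2r locus, Igf2r encodes the receptor that takes up IGF2 and delivers it for breakdown, and Airn silences Igf2r on the paternal copy. Igf2r ranged from 237 to 440 CPM (median 337) in wt and from 214 to 474 CPM (median 333) in matdel embryos. Airn ranged from 3.84 to 10.7 CPM (median 7.19) in wt and from 3.06 to 13.2 CPM (median 6.39) in matdel embryos, the highest value being 12 counts in the shallow library. The genotypes overlapped over nearly their whole range for both genes. Over all stages Igf2r differed by -0.01 (SE 0.082, 95% interval -0.18 to 0.15) and Airn by -0.09 (SE 0.13, 95% interval -0.35 to 0.16). For each 100 counts of Igf2r there were 2.15 ± 0.556 counts of Airn in wt (n = 21) and 2.13 ± 0.881 in matdel embryos (n = 16). At 8 somites both matdel embryos lay below all 3 wt embryos for both genes. Igf2r was 240 and 360 CPM against 366 to 404 CPM there, and neither gene passed the test at that stage. Over the genes of the set and all stages, 8 such separations of the genotypes were seen, 4 with matdel lower and 4 with matdel higher. With 3 wt and 2 matdel embryos at a stage, separation by chance is not rare. The share of all genes separated this way was not counted, here or for Impact, Nnat and Peg10 below.

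Grb10, an adaptor protein that binds the insulin and IGF1 receptors and restrains growth, ranged from 959 to 1917 CPM (median 1454) in wt and from 1077 to 1689 CPM (median 1401) in matdel embryos. The matdel values lay inside the wt range. Over all stages the difference was -0.03 (SE 0.059, 95% interval -0.15 to 0.09, adjusted p = 0.977). The lowest value, 959 CPM, was wt replicate 1 at 10 somites, where the other 3 wt embryos had 1525 to 1563 CPM.

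At the Gnas locus, Gnas itself differed by 0.00 (SE 0.040, 95% interval -0.08 to 0.08) over all stages, with 618 to 910 CPM in wt and 585 to 855 CPM in matdel embryos. Nespas is transcribed against the maternally expressed Gnas transcript from the paternal copy. It ranged from 7.90 to 15.1 CPM (median 11.8) in wt and from 6.61 to 18.6 CPM (median 13.2) in matdel embryos. Its matdel mean was above the wt mean at 6 of 6 stages, and 10 of 16 matdel embryos lay above the wt mean of their own stage. At 6 somites these means were within their spread (12.2 ± 3.92 CPM in matdel, 11.6 ± 2.74 CPM in wt, n = 4 each). The share of all genes with such a run of stages was not counted. Over all stages the difference was 0.19 (SE 0.090, 95% interval 0.01 to 0.37, adjusted p = 0.864), which did not pass the threshold. For each 100 counts of Gnas there were 1.62 ± 0.294 counts of Nespas in wt (n = 21) and 1.83 ± 0.4001 in matdel embryos (n = 16), a gap within 1 SD of either. Since the counts act as not strand-specific, reads of Gnas in the shared exon part may be counted for Nespas.

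Plagl1 showed no called genotype difference over all stages (-0.10, SE 0.12, 95% interval -0.35 to 0.15, adjusted p = 0.940). Its matdel mean of log2 CPM was below that of wt at 5 of 6 stages. On this scale 12 of 16 matdel embryos lay below the wt mean of their stage. In CPM the matdel mean was the higher at 7 somites (27.5 ± 12.9 against 25.3 ± 2.85 in wt). The same held at 9 somites (47.1 ± 3.35 against 46.7 ± 11.1), both within their spread. Impact, which binds GCN1 and holds back the amino acid sensing kinase GCN2, lies on the plus strand of chromosome 18 (chr18:12955852-12992950). It ranged from 108 to 161 CPM (median 142) in wt and from 100.4 to 193 CPM (median 125) in matdel embryos. The highest value was 175 counts in the shallow library. Its matdel mean was below the wt mean at 6 of 6 stages and 12 of 16 matdel embryos were below the wt mean of their stage. As for Plagl1, the share of all genes with such a run of stages was not counted. Over all stages the difference was -0.12 (SE 0.063, 95% interval -0.25 to 0.01, adjusted p = 0.865). At 11 somites the 2 matdel embryos had 100.4 and 119 CPM and the 3 wt embryos 160, 128 and 141 CPM. The matdel values lay wholly below the wt values there, with a difference of -0.39 (SE 0.11, adjusted p = 0.567). Without the filter on low counts the same difference had an adjusted p of 0.0245. In the filtered comparison at 11 somites, 8.66% of all genes had an unadjusted p under 0.05 in edgeR. All 12 erythroid markers were higher in matdel embryos at that p, and 0 passed the adjusted threshold (median log2 difference 1.83). Their summed level was 4350 and 1855 CPM in the matdel and 929, 1217 and 610 CPM in the wt embryos. The part of the erythroid markers in the Impact difference was not tested.

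Nnat ranged from 77.3 to 163 CPM (median 95.5) in wt and from 81.3 to 138 CPM (median 104) in matdel embryos, with a difference over all stages of 0.09 (SE 0.063, 95% interval -0.04 to 0.22). Both matdel embryos at 8 somites (104 and 107 CPM) lay above the 3 wt embryos there (77.3 to 98.2 CPM). Blcap, in whose intron Nnat sits, had a slope of 0.08 per somite in wt embryos (adjusted p = 0.00868) and no called genotype difference.

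Sgce and Peg10 share the short stretch between their starts, and Sgce encodes epsilon-sarcoglycan, a membrane protein. At 6 to 8 somites Peg10 ranged from 870 to 1711 CPM (median 1230, n = 11) in wt and from 658 to 1260 CPM (median 1080, n = 9) in matdel embryos. Most matdel embryos lay in the lower part of the wt range, with overlap. The difference was -0.35 (SE 0.12, 95% interval -0.59 to -0.10, unadjusted p = 0.00797, adjusted p = 0.476 in edgeR), which did not pass the threshold. At 9 to 11 somites wt embryos had 482 to 1299 CPM (median 996, n = 10) and matdel embryos 713 to 1365 CPM (median 992, n = 7). The groups overlapped over most of their range, with the lowest value in wt and the highest in matdel embryos. The difference there was 0.02 (SE 0.15, 95% interval -0.29 to 0.33). The contrast was widest at 8 somites, where the 3 wt embryos had 1581, 1317 and 1540 CPM and the 2 matdel embryos 1084 and 829.5 CPM. That difference was -0.63 (SE 0.17, unadjusted p = 0.00547, adjusted p = 0.999 in edgeR). It was not adjusted for sex. Both matdel embryos there were female, and 2 of the 3 wt embryos were male. At 9 somites the order turned, with 1092, 997 and 1097 CPM in wt and 1098 and 1365 CPM in matdel embryos.

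Sgce at 6 to 8 somites had 32.6 to 47.1 CPM (median 36.9) in wt and 27.0 to 43.7 CPM (median 34.6) in matdel embryos, a difference of -0.20 (SE 0.10, 95% interval -0.41 to 0.01, adjusted p = 0.635). For each 100 counts of Peg10 there were 3.47 ± 0.785 counts of Sgce in wt and 3.53 ± 0.731 in matdel embryos. Values of cell type marker lists at 6 to 8 somites are given beside this, and 0 markers of these lists passed the genotype test there in edgeR. The summed level of 12 neural markers (9 with a mean over 1 CPM, none at 0) was 84.8 to 123 CPM (median 110) in wt and 108 to 185 CPM (median 144) in matdel embryos. The summed level of 5 allantois markers (4 over 1 CPM, none at 0) was 170 to 335 CPM (median 228) in wt and 108 to 424 CPM (median 208) in matdel embryos. Of all genes, 8.13% had an unadjusted p under 0.05 at 6 to 8 somites in edgeR. At an unadjusted p under 0.05, 5 of 9 neural markers tested were higher in matdel embryos and 0 of 4 allantois markers were higher or lower. Markers of trophoblast and decidua, the placental side of the conceptus and the lining of the uterus, summed to 7.95 to 222 CPM (median 24.0) in wt and 6.72 to 95.4 CPM (median 11.6) in matdel embryos. Of that list of 12, 5 had a mean over 1 CPM and 1 was at 0 throughout, and 2 of 5 tested, Prl8a2 and Plac1, were lower at an unadjusted p under 0.05. The 11 endothelial markers, all over 1 CPM, summed to 238 to 426 CPM (median 349) in wt and 244 to 399 CPM (median 271) in matdel embryos, and 2 of 11, Pecam1 and Kdr, were lower at an unadjusted p under 0.05. Every one of these sums overlapped between the genotypes. Of the other lists at 6 to 8 somites, 3 of 16 tailbud and 3 of 4 somite markers tested were higher at an unadjusted p under 0.05. Of 15 endoderm markers 2 were lower, and of 8 erythroid markers tested 0 were higher or lower. Over the 37 embryos the Spearman correlation of Peg10 was 0.73 with the allantois sum, 0.53 with the trophoblast and decidua sum, 0.48 with the endothelial sum and -0.54 with the neural sum. It was -0.49 with the tailbud sum, 0.45 with the endoderm sum, -0.15 with the erythroid sum and 0.12 with the somite sum. At 8 somites alone, 2.81% of all genes had an unadjusted p under 0.05 in edgeR. At that p, 8 of 16 tailbud markers were higher and 10 of 12 erythroid markers lower. Of 5 trophoblast and decidua markers tested there, 3 were lower. Of the other lists, 1 of 10 neural markers was higher, 1 of 11 endothelial markers lower, and the rest had none. The part of these lists in the Peg10 differences was not tested.

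Genes of the set also varied together from embryo to embryo. After the mean of each genotype and stage group was taken away, Peg10 and Igf2r had the highest Pearson correlation of log2 CPM, 0.82, although they lie on chromosomes 6 and 17. The neighbours Sgce and Peg10 followed with 0.70 and Igf2r and Sgce with 0.50. The overlapping pairs were less alike, with 0.06 for Igf2r and Airn and 0.23 for Gnas and Nespas. For Grb10 and Nnat the value was -0.58, and -0.37 without wt replicate 1 at 10 somites, which had the lowest Grb10 and the highest Nnat level (163 CPM) of all embryos. The Spearman correlation of their levels was 0.04. Without that embryo Peg10 and Igf2r had 0.84 and Sgce and Peg10 0.69, and without the shallow matdel library they had 0.83 and 0.70. Gnas and Nespas had -0.01 and Igf2r and Airn 0.17 without the shallow library. These are descriptions over 37 embryos that share tissue makeup and depth.

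**Figure D4:**
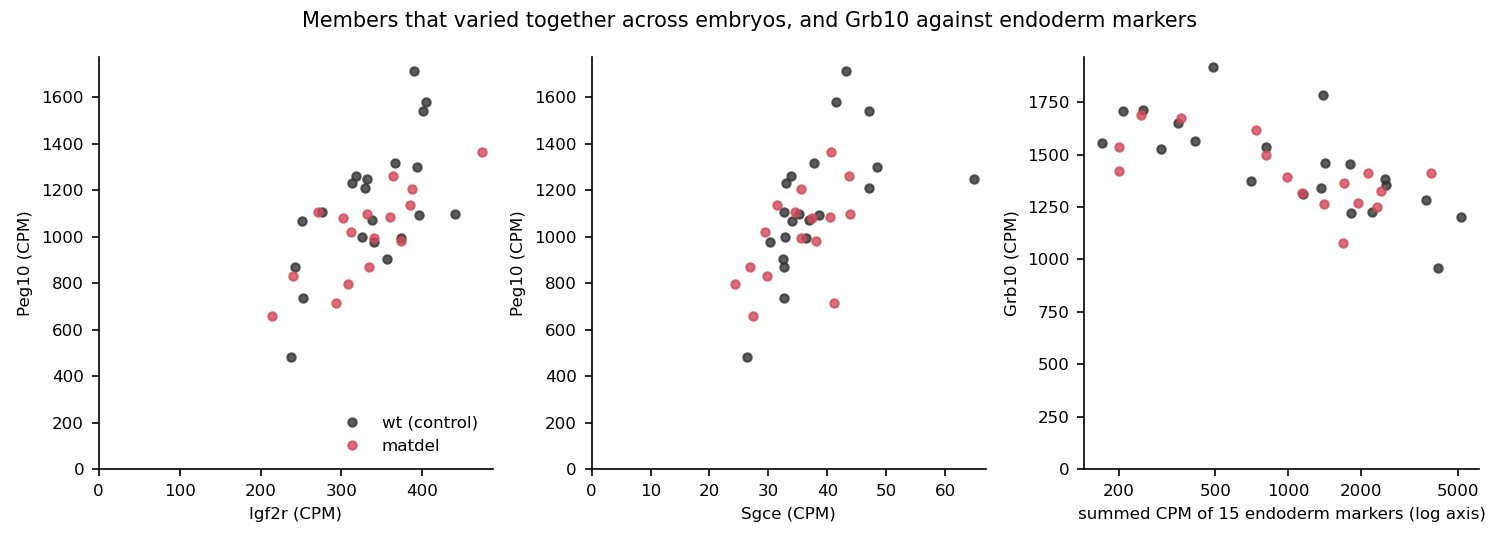
Peg10 against Igf2r and against Sgce, and Grb10 against the summed level of 15 endoderm markers (log axis), all in CPM, with 1 point per wt (black) or matdel embryo (red). Peg10 rises with Igf2r and with Sgce in both genotypes, and Grb10 is lower where endoderm markers are higher (Spearman correlation -0.72 over 37 embryos).

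For each gene, the genes with the most similar course over the 37 embryos were sought among 11199 compared by Spearman correlation of log2 CPM. For Igf2r the nearest was Peg3 (0.80), and for Sgce it was Suv39h1 (0.81), with H19 second (0.81). Peg3 and H19 are imprinted and on chromosome 7. The share of imprinted genes among those compared was not counted. Grb10 was nearest to F2r and Hmga2, a chromatin protein of growing tissue (each 0.91). Plagl1 was nearest to Gja5, a gap junction gene of vessels and heart (0.90), and Hipk3 (0.89). Peg10 was nearest to Tbx20, a mesodermal T-box factor (0.80). For the rest the highest value was 0.71 for Airn (Azi2), 0.74 for Nespas (Snrpb), 0.74 for Impact (Foxn2) and 0.76 for Nnat (Tpi1). For Gnas it was 0.99 with Gm20721, which overlaps 13.1% of the Gnas exon bases on the opposite strand.

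The pathways around these genes were described by lists, whose counts are to be read against the shares over all genes: 6.64% called in the wt slope, 3.07% in the matdel slope, and 5.66% at an unadjusted p under 0.05 for genotype over all stages. Of 41 other imprinted genes outside chromosome 7, 30 were tested by genotype over all stages and none passed, with 1 higher and 2 lower at an unadjusted p under 0.05 (median 0.03). Their slope in wt embryos passed for 1 rising and 3 falling genes. Casd1, the neighbour of Sgce, rose by 0.09 per somite (adjusted p = 0.0195), while Zrsr1 (-0.11, adjusted p = 0.00362), Sfmbt2 (-0.33, adjusted p = 0.0130) and Peg13 (-0.13, adjusted p = 0.0165) fell. Peg13 fell in matdel embryos too (-0.16, adjusted p = 0.00527) and Casd1 rose there (0.12, adjusted p = 0.0355).

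Of 27 genes of the IGF and insulin pathway, 26 were tested and none passed by genotype, with 2 higher and 1 lower at an unadjusted p under 0.05. The lower one was Igf2, with -0.15 (SE 0.068, adjusted p = 0.864), named here after its value was seen. In wt embryos 2 rose with stage and 1 fell. Igf2, the growth factor that Igf2r removes, rose by 0.12 per somite (adjusted p = 0.0124) and in matdel embryos by 0.14 (adjusted p = 0.0139). Igfbp5, which binds IGFs outside the cell, rose by 0.25 per somite in wt and 0.31 in matdel embryos (adjusted p = 0.000564 in the latter), and Pik3r1 fell by 0.08 in wt embryos (adjusted p = 0.0211). Igfbp3, another IGF binding protein, passed in matdel embryos (0.14, adjusted p = 0.0129).

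Of 18 genes of the cAMP pathway, all were tested by genotype and none passed, with 1 lower at an unadjusted p under 0.05, and 1 rose with stage in each genotype. That gene was Gnal, which encodes a G protein alpha subunit close to that of Gnas, with 0.18 per somite in wt (adjusted p = 0.0238) and 0.28 in matdel embryos (adjusted p = 0.0088). Of 23 genes of the GCN2 response that Impact holds back, 22 were tested by genotype and none passed, with 4 higher and 1 lower at an unadjusted p under 0.05. The smallest p, singled out after the values were seen, was for Ddit4, a stress-induced inhibitor of mTOR, with a difference of 0.44 (SE 0.11, adjusted p = 0.683). With stage 1 gene of this list fell, Aldh18a1, an enzyme of proline synthesis, by 0.07 per somite in wt (adjusted p = 0.0354) and by 0.12 in matdel embryos (adjusted p = 0.0352).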

How the data were processed

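RNA was sequenced from 37 single-embryo tailbud samples (21 wt, 16 matdel), after poly(A) selection with a TruSeq kit, stranded or unstranded, on a NextSeq with single-end reads. Which library used which kit was not given in the sources used here, so counts of overlapping opposite-strand genes are uncertain. The authors trimmed reads with Trim Galore 0.4.4, mapped them with HISAT2 2.0.5 to GRCm38.p6, a C57BL/6 reference, and deposited raw counts per gene from SeqMonk. Reads of the Castaneus copy may map less well, and this was not tested. Of 35591 rows, 49 with a repeated identifier were dropped. The other deposited tables, log2 RPKM of Hox genes and the authors' own fold changes and p-values, were not used.

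The counts were fitted with edgeR 4.0.16 in R 4.3.3 (TMM normalisation, filterByExpr with a minimum count of 10, two-sided quasi-likelihood tests, Benjamini-Hochberg adjustment over all genes tested, threshold 0.05). Genotype was tested over all stages, at 6 to 8 and at 9 to 11 somites adjusting for sex and for each somite stage as a category, and at each stage alone. The tests at each stage alone did not adjust for sex, which was unevenly spread between the genotypes at some stages. Slopes on somite number had sex as a covariate, and the matdel slope was added after the wt slope was seen. Levels are TMM-normalised CPM, log2 CPM used a prior count of 2, and intervals are 95%. Alternatives were DESeq2 1.42.0, median-ratio size factors, a model of all stage and genotype groups, no filter, sex left out, females alone, a replicate block and leaving libraries out. All 10 genes passed the filter in every comparison. For each, the named genes were its neighbours and overlapping genes, the 3 most similar genes with a mean of at least 5 CPM, and the genes of each list past the threshold, up to 3 by smallest p. The genes and lists were chosen with earlier results of these data known. Scripts were tested on simulated data.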

Additional observations from a re-analysis of the deposited data

Results flagged for a closer look

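Among 40 groups of 4 embryos (10 genes in 4 groups), 2 values stood apart from the rest of their group by more than Dixon's critical ratio of gap to range, 0.829 for 4 embryos, and chance alone flags about 1 in 20. Both came from wt replicate 1 at 10 somites. Its Grb10 level was 959 CPM where the other 3 embryos had 1525 to 1563 CPM, a gap of 0.937 of the range. Its Sgce level was 64.9 CPM where the others had 30.3 to 32.7 CPM, a gap of 0.932 of the range. The same embryo had the lowest summed tailbud marker level, 1380 CPM, with 4138 CPM of endoderm and 4021 CPM of erythroid markers, and the part of these in its values was not tested.

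For Peg10 the order of the genotypes turned between neighbouring stages. At 8 somites both matdel embryos lay below all 3 wt embryos (log2 ratio of means -0.628), and at 9 somites both lay above (0.213), there by the gap between 1097.12 and 1097.88 CPM. Both matdel embryos were female at each of these stages, and the wt embryos were of both sexes. Sex was not adjusted for, and the difference between the stages was not tested. The share of all genes with the genotypes separated at these stages was not counted.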

How the results depend on the processing

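Over 2610 values of the 10 genes under an alternative, 2374 kept their sign and their side of the threshold, 230 changed sign with an unadjusted p over 0.05 in both fits, no call was lost and 6 were gained. Plagl1 passed in every alternative of both slopes, and Gnas in every alternative of the wt slope. Grb10 passed in the wt slope with females alone (0.06, adjusted p = 0.0150 in edgeR).

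Numbers of genes called moved more. With females alone they were 1 over all stages, 0 at 6 to 8 and 0 at 9 to 11 somites, 1802 for the slope on somite number in wt and 175 for the slope on somite number in matdel. DESeq2 called 30 at 6 to 8 somites, 2 at 7, 1 at 8 and 10 at 11 somites, and 1127 for the matdel slope. Without the filter on low counts there were 39 at 6 to 8 somites, 7 at 6, 1 at 7, 186 at 8 and 172 at 11 somites, and 39 for the slope difference, and 1 of the 10 genes passed at 11 somites (Impact). Leaving sex out gave 2 at 6 to 8 somites. Without matdel replicates 1 and 2 at 6 somites the matdel slope was called for 301 genes. Without libraries under 5 M counts (M, mega-counts) 2 of the 10 genes passed in the matdel slope, Plagl1 and Airn.

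Leaving out 1 embryo at a time gave 2 to 3 genes over all stages, 0 to 2 at 6 to 8 and 0 to 1 at 9 to 11 somites, 0 to 7 at 8 somites (7 without wt replicate 3) and 0 to 1 at 9 somites (1 without matdel replicate 2). The wt slope was called for 668 genes without wt replicate 1 at 6 somites and 1920 without wt replicate 1 at 10 somites, and for 2 to 3 of the 10. The matdel slope was called for 254 genes without matdel replicate 2 at 11 somites and 638 without matdel replicate 3 at 6 somites, and for 1 to 2 of the 10. The causes were not tested.

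Embryos share only a replicate number: over 16 same-numbered pairs the correlation of deviations was -0.292 to 0.651, with 4 over 0.1. With the number as a replicate block, 2 genes were called at 7 somites, 11 at 8 and 5 at 9 somites, and 2 of the 10 passed in the matdel slope, Plagl1 and Grb10 (0.07, adjusted p = 0.0341 in edgeR). At 8, 9 and 11 somites there were 2 matdel embryos, and Airn and Nespas had as few as 12 and 6 counts in a library, which limits what could be detected.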
